A study of Mus musculus with 23 samples.

Results

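The genes described here are mucins and other genes known from the surface epithelium of the conjunctiva and from mucous cells: Muc1, Muc4, Muc5ac, Muc5b, Muc15, Muc16, Muc20, Psca, Spdef and Upk3b. They were taken by name, and a probe was taken for a gene when the RefSeq accession printed for it in the array's annotation belonged to that gene. Of the 10 listed genes, 9 had such a probe, 11 probes in all, out of 20887 genes that could be named on the array. No probe was matched to Muc16, so no value is given for it. All 9 genes were among the 16323 that passed a filter on dim probes and entered the tests.

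The samples came from mice of the background strain labelled B6/CL, and the total RNA of each was labelled with Cy3 and hybridised alone to an Agilent array. The 23 arrays fell into 8 groups. There were 2 arrays of whole adult lacrimal gland and 3 of whole adult harderian gland, both taken at 7 weeks. Embryos at E16.5 gave separated epithelium and mesenchyme of the eyelid, the lacrimal gland and the harderian gland, with 3 arrays of each. The eyelid tissue included the ocular conjunctiva, per the series' design text. The labels do not say how many animals went into an array or whether arrays of a group came from different animals, so each p-value reflects array-to-array spread alone.

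Mucins are large, heavily O-glycosylated proteins that keep wet epithelia hydrated and protected. Membrane-anchored mucins, among them Muc1, Muc4, Muc15, Muc16 and Muc20, form the glycocalyx on the apical cell surface, while the gel-forming mucins Muc5ac and Muc5b are secreted by goblet cells and mucous gland cells. The lacrimal gland secretes water and proteins into the tear film, the harderian gland of rodents a lipid-rich fluid, and the conjunctiva carries goblet cells among stratified epithelial cells. Upk3b encodes a uroplakin, a membrane protein related to those of the bladder's surface plaques, and is also used as a mesothelial marker in mice. Psca encodes a small GPI-anchored surface protein of the Ly6 family, and Spdef is an ETS-domain transcription factor required for goblet cell differentiation in the mouse conjunctiva and intestine.

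Levels are given as log2 intensity relative to the 75th percentile of the probes on the same array, so that 0 lies at that percentile. A probe was called not well above background by the scanner software's own flag. A gene was called higher or lower when limma's moderated test, fitted over all 23 arrays, gave an adjusted p (Benjamini-Hochberg over 16323 genes) under 0.05. Levels of different probes are not comparable with each other. The 75th percentile itself was an intensity of 193.6 and 138.7 on the adult lacrimal arrays and 312.8 to 857.2 on the other 21, and 42.4% to 64.6% of probes per array were well above background. Within groups, the lowest correlation between arrays was 0.971 for adult lacrimal gland, 0.959 for adult harderian gland and 0.985 for the embryonic groups.

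The labelled tissues were set against marker genes, as sums of linear intensity relative to the 75th percentile. Conjunctival and corneal markers summed to 754 to 894 in eyelid epithelium, against 32.0 to 42.6 in lacrimal epithelium and 76.7 to 80.1 in harderian epithelium, while the corneal keratin gene Krt12 was not well above background on any adult array. Markers of cornified epidermis summed to 1184 to 1722 in eyelid epithelium, against 1.80 to 1.87 in lacrimal epithelium and 1.83 to 2.25 in harderian epithelium. General epithelial markers summed to 88.8 to 214 in eyelid mesenchyme, against 7.01 to 15.6 in lacrimal mesenchyme and 5.06 to 21.8 in harderian mesenchyme. The ranges of eyelid mesenchyme and gland mesenchymes did not overlap, and the part of this epithelial signal, or of the epidermal one, in the eyelid comparisons was not tested. A list of 5 mesothelial markers, which holds Upk1b and Krt19, genes of surface epithelia as well, summed to 181 to 274 in eyelid epithelium, against 13.0 to 15.9 in lacrimal epithelium and 10.2 to 31.9 in eyelid mesenchyme. It had 4 of 5 genes higher than in lacrimal epithelium and 5 of 5 higher than in eyelid mesenchyme, and its part in the Upk3b values was not tested.

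In the E16.5 eyelid epithelium, Upk3b, Psca, Muc15, Muc4 and Muc20 had their highest group mean of all 8 groups. Only Psca stood clear of the next group there, while Upk3b, Muc15, Muc4 and Muc20 overlapped adult harderian gland. Muc20, for 1, was 1.38, 1.45 and -2.04 in adult harderian gland. Muc1, Muc5ac and Muc5b were highest in adult harderian gland, and Spdef was highest in adult lacrimal gland. The plot of each gene by array shows these 3 patterns. In whole or separated tissue, fewer cells of a type and less RNA per cell cannot be told apart.

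**Figure D1:**
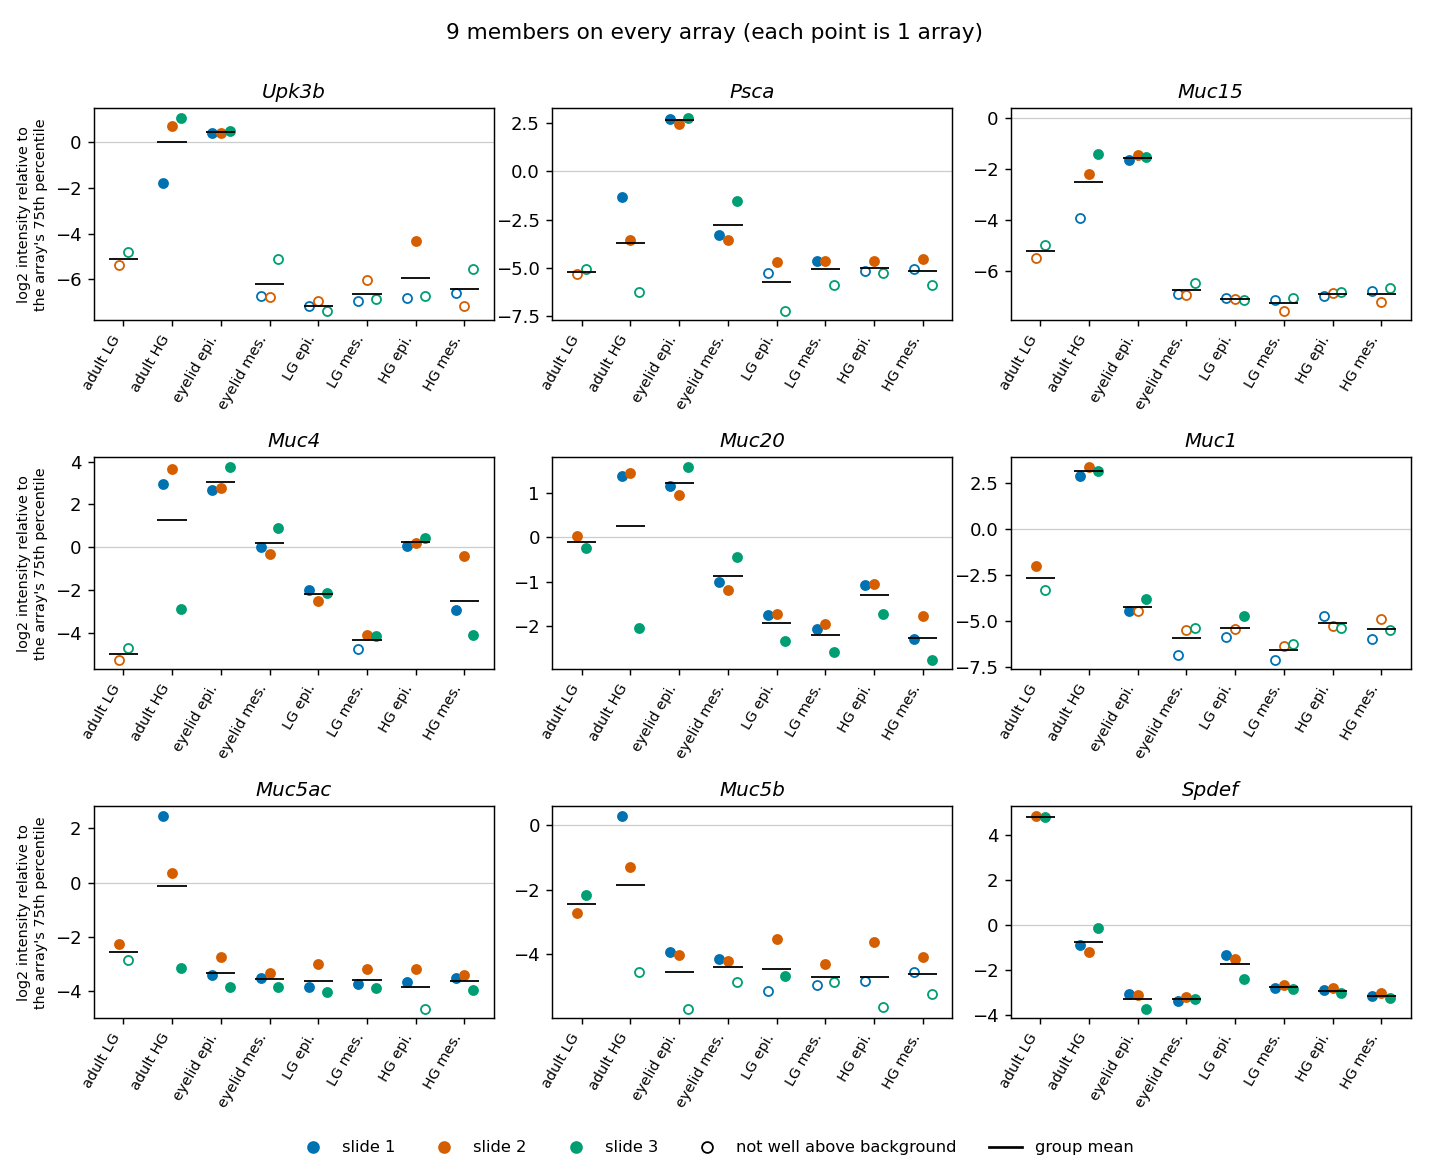
Level of each of the 9 measured genes on every array (log2 intensity relative to the array's 75th percentile), by group, with colours for the 3 slides, open symbols for values not well above background and a bar for the group mean. Upk3b, Psca and Muc15 sit on all 3 eyelid epithelium arrays above every array of the embryonic glands, some of which are above background for Psca and 1 for Upk3b, whereas Spdef reaches 4.85 and 4.80 in adult lacrimal gland only.

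Upk3b stood at 0.39, 0.41 and 0.48 in eyelid epithelium, against -7.14, -6.93 and -7.36 in lacrimal epithelium, -6.80, -4.34 and -6.72 in harderian epithelium, and -6.72, -6.78 and -5.09 in eyelid mesenchyme. Of those 9 values outside eyelid epithelium, only the -4.34 was well above background, and no array of another embryonic group reached the eyelid epithelium. The difference was at least 47.4-fold from lacrimal epithelium (adjusted p = 6.19e-08) and at least 35.1-fold from eyelid mesenchyme (adjusted p = 2.34e-07). These bounds set the bright group's mean against the lowest signal that counts as above background on each dim array. Against harderian epithelium, where 1 of 3 arrays was above background, the log2 difference was 6.38 ± 0.70 (SE, adjusted p = 6.56e-07). In the adult glands Upk3b was not well above background in lacrimal gland (-5.38 and -4.82), against -1.80, 0.70 and 1.05 in harderian gland. The adult harderian values overlapped those of eyelid epithelium, and below these 2 groups each group overlapped its lower neighbour in the order of means.

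Psca stood at 2.74, 2.46 and 2.78 in eyelid epithelium, against -3.31, -3.57 and -1.54 in eyelid mesenchyme. In lacrimal epithelium the values were -5.26, -4.72 and -7.23, and in harderian epithelium -5.15, -4.65 and -5.29, with 1 of 3 arrays above background in each. Eyelid epithelium lay above every other array of the series. Its log2 difference was 8.39 ± 0.88 from lacrimal epithelium (adjusted p = 3.15e-07), 7.69 ± 0.88 from harderian epithelium (adjusted p = 1.07e-06) and 5.46 ± 0.88 from eyelid mesenchyme (adjusted p = 3.63e-05). In adult lacrimal gland Psca was -5.31 and -5.09, not well above background, against -1.35, -3.59 and -6.26 in adult harderian gland, where the lowest value was also at background. The 3 harderian arrays thus spanned the whole range from clear signal to none.

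Muc15, a membrane mucin, was -1.67, -1.47 and -1.53 in eyelid epithelium. On the other 15 embryonic arrays it lay between -6.46 and -7.55 and was never well above background. The eyelid epithelium was at least 12-fold higher than lacrimal epithelium (adjusted p = 1.64e-09), at least 9.03-fold higher than harderian epithelium (adjusted p = 3.25e-09) and at least 8.89-fold higher than eyelid mesenchyme (adjusted p = 3.89e-09). Muc15 passed the filter on dim probes through eyelid epithelium alone, so these p-values are not independent of the filter. In the adult glands it was -5.47 and -4.97 in lacrimal gland, both at background, against -3.91, -2.20 and -1.43 in harderian gland, where the lowest of the 3 was also at background. Muc15 and Upk3b thus shared eyelid epithelium and adult harderian gland as the groups with signal.

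Muc4, a large membrane mucin of the ocular surface, stood at 2.65, 2.75 and 3.74 in eyelid epithelium, against -1.98, -2.51 and -2.14 in lacrimal epithelium and 0.03, 0.21 and 0.41 in harderian epithelium. The 3 epithelia did not overlap. In the mesenchymes it was 0.01, -0.32 and 0.91 in eyelid, -4.78 (at background), -4.11 and -4.15 in lacrimal gland, and -2.96, -0.44 and -4.10 in harderian gland. The log2 difference from lacrimal epithelium was 5.26 ± 1.15, or 38.3-fold (adjusted p = 0.00103), and from eyelid mesenchyme 2.85 ± 1.15 (adjusted p = 0.0461). The call against eyelid mesenchyme sat at the threshold and was lost without any 1 of the 6 eyelid arrays (adjusted p = 0.054 to 0.13) or any 1 of several arrays of other groups (0.0531 to 0.0544). From harderian epithelium it was 2.83 ± 1.15 with a 95% interval of 0.42 to 5.24, which missed the threshold (adjusted p = 0.0535). The adult harderian arrays, where Muc4 ranged widely, enter that error, and with the embryonic groups fitted alone the adjusted p was 0.00192. A second, dimmer Muc4 probe gave a smaller difference between eyelid and lacrimal epithelium, 2.03 ± 0.79 (adjusted p = 0.0431), and no call against harderian epithelium (1.05, adjusted p = 0.304) or eyelid mesenchyme (1.77, adjusted p = 0.072).

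Muc20, a smaller membrane mucin, was 1.15, 0.95 and 1.58 in eyelid epithelium, against -1.74, -1.71 and -2.34 in lacrimal epithelium, -1.07, -1.06 and -1.73 in harderian epithelium, and -1.0, -1.18 and -0.45 in eyelid mesenchyme. All 23 arrays, those of mesenchyme included, had it well above background. Eyelid epithelium exceeded lacrimal epithelium by 3.16 ± 0.61 on the log2 scale, or 8.93-fold (adjusted p = 0.000342), harderian epithelium by 2.51 ± 0.61 (adjusted p = 0.00254) and eyelid mesenchyme by 2.10 ± 0.61 (adjusted p = 0.00746). From eyelid mesenchyme down, each embryonic group in the order of means overlapped the next. A second Muc20 probe was well above background on 2 of 3 eyelid epithelium arrays and 1 adult harderian array, and did not pass the filter.

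Promoter windows from RefSeq (GRCm38.p6), running from 250 bases before to 50 bases after the annotated start, were held for 6 of the 10 genes. Those of Upk3b and Muc4 are shown as examples of genes that carry the eyelid epithelium pattern and had a window. Muc20, highest in the same group, had a window too, which is not shown. The Upk3b window is chr5:136038246-136038545 on the plus strand, and the Muc4 window is chr16:32735636-32735935 on the plus strand. Capitals mark the ETS-type motif AGGAA, and its Spdef-type form AGGAT, on either strand.
Upk3b: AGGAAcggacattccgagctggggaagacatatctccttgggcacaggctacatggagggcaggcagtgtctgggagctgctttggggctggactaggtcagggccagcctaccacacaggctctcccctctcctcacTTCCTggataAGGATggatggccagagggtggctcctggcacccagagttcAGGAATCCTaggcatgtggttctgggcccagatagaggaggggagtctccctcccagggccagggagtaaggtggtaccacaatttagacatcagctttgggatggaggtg
Muc4: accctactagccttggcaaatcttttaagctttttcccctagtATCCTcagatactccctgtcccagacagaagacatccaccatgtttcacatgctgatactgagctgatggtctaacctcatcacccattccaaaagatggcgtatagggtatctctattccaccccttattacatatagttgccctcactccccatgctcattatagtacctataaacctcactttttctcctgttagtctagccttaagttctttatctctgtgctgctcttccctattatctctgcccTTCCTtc
The Upk3b window held 3 matches to AGGAA and 2 to AGGAT, with 1 pair overlapping across the strands, and the Muc4 window held 1 match to each. Of 32851 mouse promoter windows of the same length, 66.7% held AGGAA and 41.0% held AGGAT, so such matches are common. The letters TATAAA, which 13.6% of windows hold, began 36 bases before the annotated start of Muc4 and were not in the Upk3b window. CACCC, a KLF-type motif held by 57.5% of windows, matched 2 times in each. The Muc20 window, not shown, held 2 matches to AGGAA, none to AGGAT and 3 to CACCC.

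Set against lacrimal epithelium, 6 of the 9 genes were higher in eyelid epithelium, where 18.3% of all genes tested were higher, and 1 was lower, where 27.2% were. The median log2 difference of the 9 genes was 3.16, also with Upk3b and Muc15 at their bounds, beside -0.10 over all genes. The sixth higher gene was Muc1, at -4.42, -4.43 and -3.81 in eyelid epithelium, against -5.85, -5.43 and -4.73 in lacrimal epithelium. With 2 and 1 of 3 arrays above background, its difference of 1.12 ± 0.42 passed narrowly (adjusted p = 0.0359). The Muc1 call was lost without any 1 of the 3 eyelid epithelium arrays or lacrimal epithelium replicates 1 or 2 (adjusted p = 0.0505 to 0.151), and after normexp (0.39, adjusted p = 0.059). The lower gene was Spdef, at -3.08, -3.11 and -3.72 in eyelid epithelium, against -1.32, -1.51 and -2.38 in lacrimal epithelium, a difference of -1.56 ± 0.26 (adjusted p = 6.22e-05). By group mean Spdef was lowest in eyelid epithelium, where it overlapped eyelid mesenchyme.

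Against harderian epithelium, 4 of the 9 genes were higher in eyelid epithelium, Upk3b, Psca, Muc15 and Muc20, beside 18% of all genes, and none was lower in limma's fit (none at an unadjusted p under 0.05 either), beside 26.6% of all genes. The median difference was 2.51, beside -0.11 over all genes. Against eyelid mesenchyme, 6 of the 9 were higher in eyelid epithelium, beside 25.7% of all genes, the sixth being Muc1, at least 1.40-fold higher (adjusted p = 0.0026, and 0.123 after normexp). The gel-forming mucins did not pass in any of these comparisons. Muc5ac was -3.40, -2.74 and -3.84 in eyelid epithelium, against -3.85, -3.0 and -4.05 in lacrimal epithelium, a difference of 0.30 with a 95% interval of -1.49 to 2.10. For Muc5b the same difference was -0.11, with an interval of -1.89 to 1.67, so these arrays leave room for a difference of either sign up to those bounds.

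**Figure D2:**
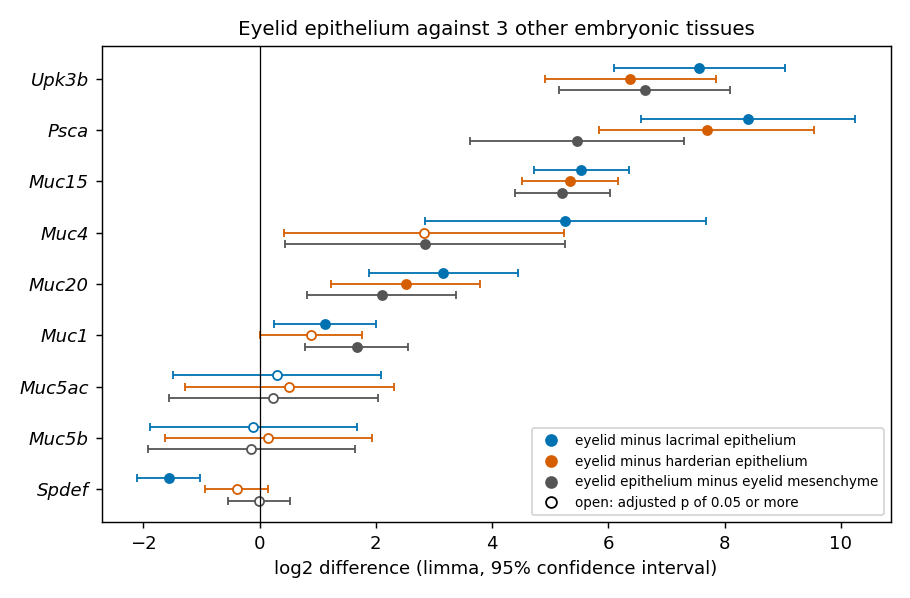
Log2 difference of eyelid epithelium from lacrimal epithelium, harderian epithelium and eyelid mesenchyme at E16.5 for each gene, with 95% intervals, and open symbols where the adjusted p was 0.05 or more. Psca reaches 8.39, 7.69 and 5.46, while Muc5ac and Muc5b lie around 0 in all 3 comparisons, and for Upk3b, Muc15 and Muc1 some points are fitted differences from groups at background, for which only the bounds in the text are measured.

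Within the glands at E16.5, fewer of the genes passed between epithelium and mesenchyme. In the lacrimal gland, 2 of the 9 were higher in epithelium, beside 32.1% of all genes. Spdef was -1.32, -1.51 and -2.38 in lacrimal epithelium, against -2.80, -2.64 and -2.82 in lacrimal mesenchyme, without overlap and with a difference of 1.02 ± 0.26 (adjusted p = 0.00221). Muc1 was the other (adjusted p = 0.019), with 1 of 3 epithelial arrays and no mesenchymal array above background, and was lost without epithelial replicate 3 (adjusted p = 0.102), without mesenchymal replicate 1 (adjusted p = 0.0934) or after normexp (0.11, adjusted p = 0.599). In the harderian gland none of the 9 passed limma's test, where 57.9% of all genes did. Muc4 was the 1 gene at an unadjusted p under 0.05 there, with a difference of 2.72 ± 1.15 (adjusted p = 0.0508), and the count stayed between 0 and 2 under the alternative settings of that fit. Between the glands, Spdef was 1 of 9 higher in lacrimal epithelium than in harderian epithelium, where 2.97% of all genes were: it was -2.90, -2.81 and -3.01 in harderian epithelium, and the difference was 1.17 ± 0.26 (adjusted p = 0.00647).

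Spdef's lead in lacrimal epithelium was smaller without the first lacrimal epithelium array, 0.96 on the log2 scale (adjusted p = 0.053), and after normexp, 0.61 (adjusted p = 0.0811). Muc4 ran the other way between the glands without overlap, by -2.43 with a 95% interval of -4.84 to -0.02, and did not pass (adjusted p = 0.326), but passed without adult harderian replicate 3, which enters the shared error (adjusted p = 0.0197). Between the gland epithelia the median difference of the 9 genes was -0.24, or 0 with genes at background set at their bounds, beside 0.0046 over all genes.

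Whether the epithelium-over-mesenchyme difference itself varied among the 3 tissues was tested with an F statistic for the interaction. It passed for 3 of the 9 genes, where 42.3% of all genes passed. Muc15 had F = 57.9 (adjusted p = 4.91e-07), Upk3b F = 30.9 (adjusted p = 2.08e-05) and Psca F = 14.4 (adjusted p = 0.00103). As Muc15 passed the filter on dim probes through eyelid epithelium alone, its interaction p-values are not independent of the filter. Muc15 was at background in every gland sample of these, and Upk3b in all but 1, so for both genes the test sets the eyelid against glands without measured signal. Taken pairwise, the Psca difference was 6.12 ± 1.24 larger in the eyelid than in the lacrimal gland (adjusted p = 0.000769) and 5.32 ± 1.24 larger than in the harderian gland (adjusted p = 0.00252). Muc4, whose epithelium exceeded mesenchyme by 2.85 in the eyelid, 2.13 in the lacrimal gland and 2.72 in the harderian gland, did not pass (F = 0.109, adjusted p = 0.933). Spdef ran against the others: its difference was -1.03 ± 0.36 in the eyelid relative to the lacrimal gland (adjusted p = 0.0324), while its F was 4.42 (adjusted p = 0.0626). That Spdef difference was lost without eyelid epithelium replicate 3, eyelid mesenchyme replicate 2 or 3, lacrimal epithelium replicate 1 or 2, or lacrimal mesenchyme replicate 1 or 3 (-1.03 to -0.82, adjusted p = 0.055 to 0.0958). Of all 9 genes, 3 were higher and 1 lower in the eyelid-against-lacrimal contrast, beside 16.7% and 20.6% of all genes, and 3 were higher in the eyelid-against-harderian contrast, beside 16.9%.

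**Figure D3:**
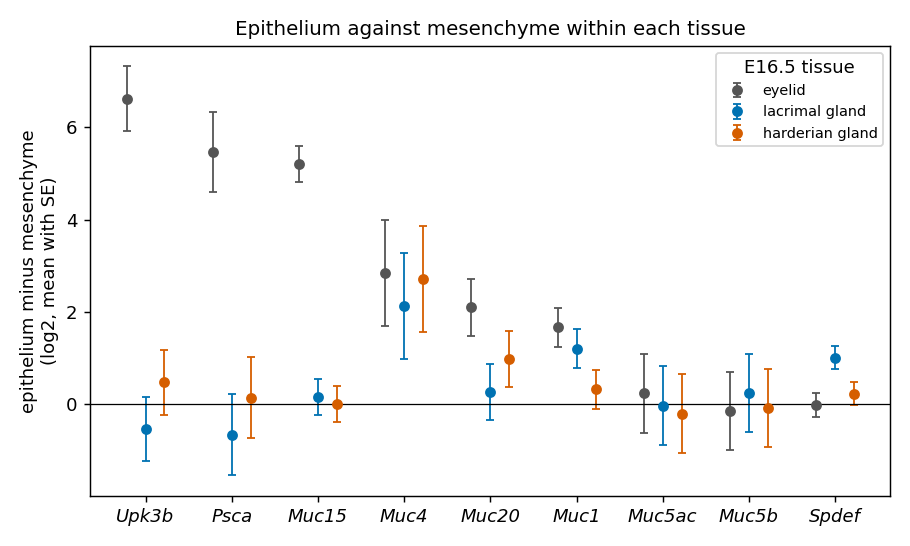
Epithelium minus mesenchyme at E16.5 for each gene in the eyelid, lacrimal gland and harderian gland (log2, mean with SE). Upk3b, Psca and Muc15 separate the eyelid from the glands, where Muc15 and nearly all Upk3b values are at background, while Muc4 lies at 2.85, 2.13 and 2.72 in the 3 tissues with overlapping errors.

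The adult glands divided the list. Spdef was higher in adult lacrimal gland (1 of 9, beside 22.4% of all genes), and Muc1, Muc4, Upk3b, Muc15 and Muc5ac were lower there than in adult harderian gland (5 of 9, beside 33.2%). The median difference of the 9 genes was -2.46, or -0.59 with genes at background in lacrimal gland set at their bounds, beside -0.13 over all genes. The split over all genes depends on scaling: 40.3% of called genes were higher in lacrimal gland as fitted, 27.9% with median scaling and 51.8% after normexp background correction, and median scaling moved the median of all genes to -0.38.

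Spdef stood at 4.85 and 4.80 in adult lacrimal gland, against -0.87, -1.19 and -0.14 in adult harderian gland. The groups were far apart relative to their spread, with a difference of 5.56 ± 0.29, or 47.2-fold (adjusted p = 1.33e-11). Its level in adult lacrimal gland also exceeded lacrimal epithelium at E16.5 by 6.56 ± 0.29, or 94.6-fold (adjusted p = 7.34e-13). In adult harderian gland it exceeded harderian epithelium by 2.17 ± 0.26 (adjusted p = 4.44e-07). In the order of group means, adult lacrimal gland, adult harderian gland, lacrimal epithelium and lacrimal mesenchyme followed each other, the first 3 without overlapping their lower neighbours, and lacrimal mesenchyme overlapped harderian epithelium.

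Muc1, the widely expressed membrane mucin of glandular epithelia, was -2.02 and -3.30 in adult lacrimal gland, the second of them at background, against 2.89, 3.37 and 3.17 in adult harderian gland. The 3 harderian arrays lay close together, and none overlapped lacrimal gland. The difference was -5.81 ± 0.47, 56.1-fold lower in lacrimal gland (adjusted p = 6.91e-09). In adult harderian gland Muc1 was at least 228-fold higher than in embryonic harderian epithelium (adjusted p = 4.18e-12), where no array was above background. Muc1 passed the filter on dim probes through adult harderian gland alone, so the p-values for that gland are not independent of the filter. In adult lacrimal gland it exceeded lacrimal epithelium by 2.68 on the log2 scale (adjusted p = 5.94e-05), with 1 of 2 adult and 1 of 3 embryonic arrays above background. Before scaling, the Muc1 intensities overlapped, at 47.64 and 14.04 in adult lacrimal gland and 10.09, 11 and 32.23 in lacrimal epithelium.

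The Spdef and Muc1 windows (RefSeq, GRCm38.p6) are shown because these genes carry the opposite patterns of the adult glands. The Spdef window is chr17:27728902-27729201 on the minus strand, and the Muc1 window is chr3:89228806-89229105 on the plus strand. Both are written in the direction of transcription, with the same ETS-type motifs in capitals.
Spdef: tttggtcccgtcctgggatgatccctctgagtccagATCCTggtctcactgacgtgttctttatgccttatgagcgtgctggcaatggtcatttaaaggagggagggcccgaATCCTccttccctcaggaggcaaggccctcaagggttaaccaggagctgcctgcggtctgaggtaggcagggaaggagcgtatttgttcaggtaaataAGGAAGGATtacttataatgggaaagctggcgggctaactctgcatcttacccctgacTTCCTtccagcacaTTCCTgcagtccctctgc
Muc1: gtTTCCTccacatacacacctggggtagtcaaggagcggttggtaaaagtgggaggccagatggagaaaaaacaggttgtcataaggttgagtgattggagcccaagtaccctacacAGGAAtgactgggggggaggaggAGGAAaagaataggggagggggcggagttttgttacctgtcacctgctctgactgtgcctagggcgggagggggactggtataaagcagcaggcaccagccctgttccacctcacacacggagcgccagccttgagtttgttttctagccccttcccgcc
The Spdef window held 3 matches to each motif, with 1 overlapping pair, and the Muc1 window held 3 matches to AGGAA and none to AGGAT. The letters TATAAA began 31 bases before the annotated start of Muc1 and was not in the Spdef window. The AP-1 motif TGANTCA, present in 7.81% of windows, was in neither of these nor in the Upk3b and Muc4 windows.

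Muc4 was -5.26 and -4.73 in adult lacrimal gland, both at background, against 2.95, 3.66 and -2.87 in adult harderian gland. The first and second harderian arrays were as high as eyelid epithelium and the third was far lower, though still above lacrimal gland. On this probe Muc4 was at least 19.4-fold lower in lacrimal gland (adjusted p = 0.000466). The second Muc4 probe, above background on 1 of 2 lacrimal arrays, gave 0.57 in the opposite direction (adjusted p = 0.608), so the direction between the adult glands rests on the brighter probe. Upk3b was at least 8.10-fold lower in lacrimal gland (adjusted p = 2.41e-05), and Muc15 at least 1.44-fold lower (adjusted p = 4e-05). With normexp background correction the Muc15 difference was -0.31 and did not pass (adjusted p = 0.273).

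The gel-forming mucins had signal in some adult harderian arrays. Muc5ac was -2.28 and -2.86 in adult lacrimal gland, the second at background, against 2.46, 0.36 and -3.15 in adult harderian gland, and Muc5b was -2.72 and -2.15 in lacrimal gland, against 0.29, -1.28 and -4.54 (at background) in harderian gland. The groups overlapped for both genes, since the third harderian array lay below the lacrimal ones. Muc5ac passed (-2.46 ± 0.95, adjusted p = 0.0362) and Muc5b did not (-0.59, 95% interval -2.58 to 1.40). The Muc5ac call was lost without the first harderian array (-1.17, adjusted p = 0.197) or the second (-2.22, adjusted p = 0.0884), and without either lacrimal array (adjusted p = 0.079 and 0.158). Muc20 did not pass, with a difference of -0.37 (95% interval -1.81 to 1.06). Psca, at background on both lacrimal arrays, did not pass either (adjusted p = 0.215).

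The adult harderian arrays differed among themselves in some genes known from the conjunctiva, while the whole list of 10 conjunctival and corneal markers summed to 188 to 221 on them. Tff1, a goblet cell trefoil peptide gene, was 2.68, -0.62 and -6.01 on replicates 1, 2 and 3, and Krt4, a keratin of mucosal stratified epithelium, was -0.56, -0.54 and -6.11, both at background on replicate 3. Krt19 was 1.88, 2.89 and -1.39, and Krt15 was 5.0, 5.38 and 1.53. Muc5ac, Muc5b, Psca, Muc4 and Muc20 were likewise lowest on replicate 3, whereas Upk3b and Muc15 were lowest on replicate 1 and Muc1 was alike on all 3. Replicate 1 had the lowest level of Mucl2, a small mucin-like secretory gene (-1.78, against 4.04 and 5.14), while the whole lacrimal secretion list, which does not hold Mucl2, summed to 195 to 250 on the harderian arrays. It also had the highest levels of muscle genes such as Myl1 (5.19, 1.32 and -1.96 on replicates 1, 2 and 3). These genes were chosen after their values were seen. Over the whole lists, conjunctival and corneal markers summed to 120 to 160 in adult lacrimal gland, with Krt4, Krt12 and Krt15 at background, against the 188 to 221 of adult harderian gland. Lacrimal secretion genes summed to 8069 to 9001 in adult lacrimal gland and 195 to 250 in adult harderian gland, and skeletal muscle genes to 0.992 to 1.35 in lacrimal gland and 1.34 to 49.5 in harderian gland. The part of adjoining tissue in these results was not tested.

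Without replicate 3 of adult harderian gland, 8 of the 9 genes were lower in adult lacrimal gland, among them Muc20 (-1.53, adjusted p = 0.00115), Muc5ac (-3.98, adjusted p = 1.69e-05), Muc5b (-1.94, adjusted p = 0.0267) and Psca, which was at background on both lacrimal arrays (adjusted p = 0.00859). The count of lower genes ranged from 4 to 8 as single arrays were left out, beside 33.2% of all genes lower with all arrays. Over all genes, calls in either direction ranged from 7808 to 9094 of 16323 in those fits. Within the slides that held both glands, Spdef differed by 6.04 and 4.94 and Muc1 by -5.40 and -6.48.

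**Figure D4:**
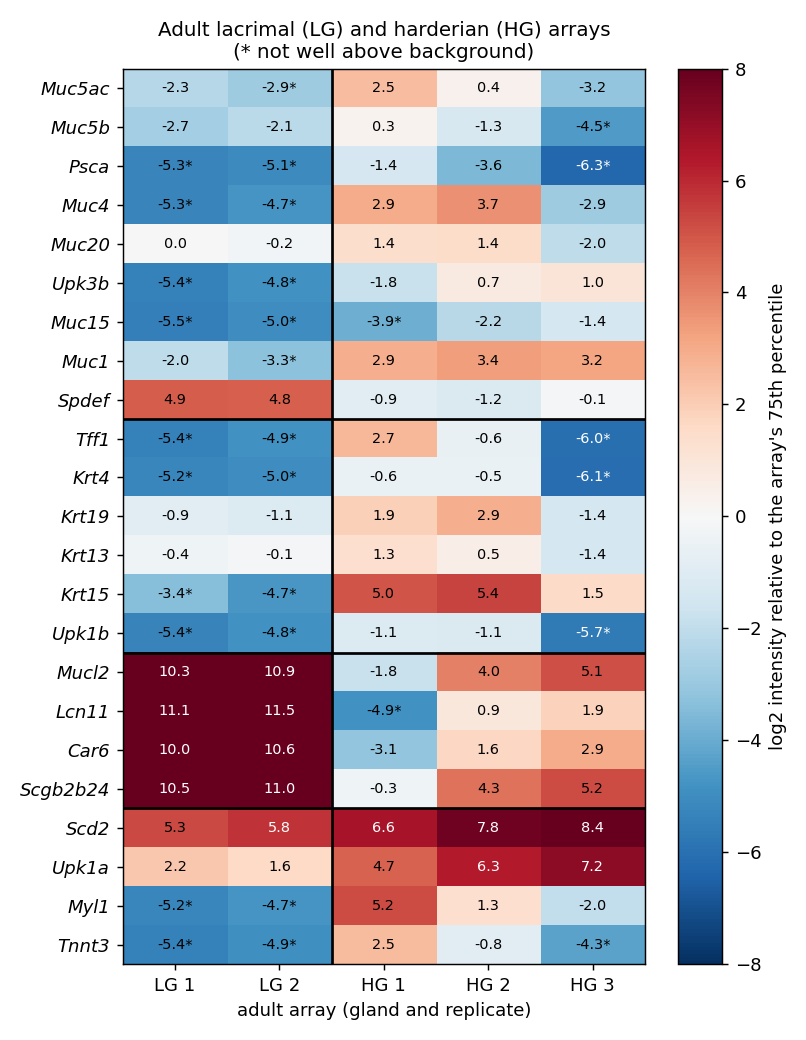
Level on each adult array (log2 intensity relative to the array's 75th percentile, colour and number, * not well above background) of the 9 genes, then of conjunctival and goblet cell genes, lacrimal secretory genes, and harderian and muscle genes chosen after their values were seen. The third harderian array is low in Muc5ac, Psca and Muc4 as in Tff1 and Krt4, the first is low in Upk3b and Muc15, and Muc1 lies between 2.89 and 3.37 on all 3.

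Adult glands were whole and the embryonic samples were separated tissue, so age and tissue makeup cannot be told apart in the comparisons between them. In adult harderian gland, 7 of the 9 genes were higher than in harderian epithelium at E16.5, beside 34.4% of all genes. Upk3b exceeded it by 5.94 ± 0.70 (adjusted p = 4.48e-07), Muc15 was at least 4.64-fold higher (adjusted p = 1.04e-08), and Muc5ac exceeded it by 3.73 ± 0.85 (adjusted p = 0.000758). Muc5b exceeded it by 2.86 ± 0.85 (adjusted p = 0.00583) with overlapping groups, and the call was lost without harderian replicate 1 (1.79, adjusted p = 0.0516). Muc20 passed narrowly (1.55 ± 0.61, adjusted p = 0.0311), with overlapping groups, and was lost without adult replicate 1 or 2 (adjusted p = 0.176 and 0.187) or embryonic replicate 3 (adjusted p = 0.101). Muc4 and Psca did not pass with all arrays (1.03 and 1.30), and both passed without replicate 3, when all 9 genes were higher. Over all genes, calls in either direction ranged from 10677 to 11602 of 16323 as single arrays were left out.

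In adult lacrimal gland, 5 of the 9 genes were called higher than in lacrimal epithelium at E16.5, beside 31.2% of all genes. Muc15 and Upk3b were among them although neither was above background in either group, so no fold is given for them. The adult lacrimal arrays had the lowest 75th percentiles, and a given intensity, at background or above, stands higher on a scale relative to a lower percentile. This holds for every gene compared with those arrays, and its part in the calls was not tested. Muc20 exceeded lacrimal epithelium by 1.82 ± 0.68 (adjusted p = 0.0243), with 0.02 and -0.24 in adult lacrimal gland, against -1.74, -1.71 and -2.34 in lacrimal epithelium, without overlap. Before scaling, its intensities overlapped, at 196.3 and 117.1 in adult lacrimal gland and 174, 145 and 169.2 in lacrimal epithelium. The Muc20 difference is thus seen in values scaled between arrays and not in the unscaled intensities. Over the alternative settings, other scalings included, it lay between 1.35 and 1.95. The Muc20 call was lost without either adult lacrimal array (adjusted p = 0.11 and 0.0631) or embryonic replicate 3 (adjusted p = 0.0713). Muc4, at background on both adult lacrimal arrays on its main probe, was at least 1.77-fold lower than in lacrimal epithelium but did not pass (adjusted p = 0.0619), and passed with the replicate number as a block (adjusted p = 0.0455). The second, dimmer Muc4 probe went the other way and passed, higher in adult lacrimal gland by 2.09 ± 0.88 (adjusted p = 0.0425). That probe was above background on 1 of 2 adult and 1 of 3 embryonic arrays. The 2 probes thus give no shared direction for Muc4 here. With the slide as a block, Muc5b passed as higher (2.16, adjusted p = 0.0253, against 0.0663 as fitted). Muc5b passed the filter on dim probes through adult lacrimal gland alone, so its p-values for that gland are not independent of the filter. Of all called genes 44.6% were higher as fitted and 31.9% with median scaling, which moved the median of all genes from -0.10 to -0.57.

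Whether adult and embryonic tissue differed more in one gland was tested as the lacrimal minus harderian difference. It passed for 4 of the 9 genes, beside 45.2% of all genes: 1 in the positive direction, beside 18.1% of all genes, and 3 in the negative, beside 27.1%. Spdef had a larger adult-over-embryonic difference in the lacrimal gland by 4.39 ± 0.38 (adjusted p = 3.88e-08). Muc1 had a smaller one (adjusted p = 1.03e-06), with harderian epithelium at background on all 3 arrays. Upk3b and Muc15 passed too, but both were at background in adult lacrimal gland and lacrimal epithelium, so no size is given, and Muc15 did not pass after normexp (adjusted p = 0.705). Over all genes 40% of those called were positive as fitted, 29.6% with median scaling and 51.9% after normexp.

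Related genes were counted from lists of neighbours in the same pathways, in the comparison of eyelid with lacrimal epithelium, and these lists too were chosen with earlier results of these data known. Uroplakins and Ly6 or PSCA relatives, surface proteins of the kind of Upk3b and Psca, had 24 of 25 genes measured, with 19 higher and 1 lower and a median difference of 2.32. Over all genes 18.3% were higher and 27.2% lower in that comparison, with a median of -0.10, against which each list's counts are to be read. Ly6d exceeded lacrimal epithelium by 10.37 ± 0.54, Upk1b by 8.45 ± 0.81 and Ly6g6c by 8.72. ETS and KLF factors of surface epithelium had 9 higher and 2 lower of 20, with a median of 0.16: Klf4, a regulator of conjunctival goblet cells in mice, exceeded lacrimal epithelium by 4.54 ± 0.26 and Ovol1 by 3.95, while Etv5 differed by -4.19 and Etv4 by -4.05, genes active in branching gland buds. Goblet and mucous cell genes were split, with 5 higher and 6 lower of 16 measured and a median of 0.17. Capn9, a calpain of mucous cells, was at least 68.5-fold higher in eyelid epithelium, and Tff1 at least 2.28-fold (adjusted p = 0.0456). Enzymes of mucin-type O-glycosylation had 8 higher and 6 lower of 30, with a median of -0.09, Galnt6 exceeding lacrimal epithelium by 4.02 ± 0.61 and Fut2 by 3.48. Other mucins had 3 higher and 4 lower of 11, with a median of -0.35, Pdpn differing by -1.95 and Parm1 by 1.47. Against harderian epithelium the uroplakin and Ly6 list had 18 higher and none lower, with a median of 2.56, beside -0.11 over all genes.

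**Figure D5:**
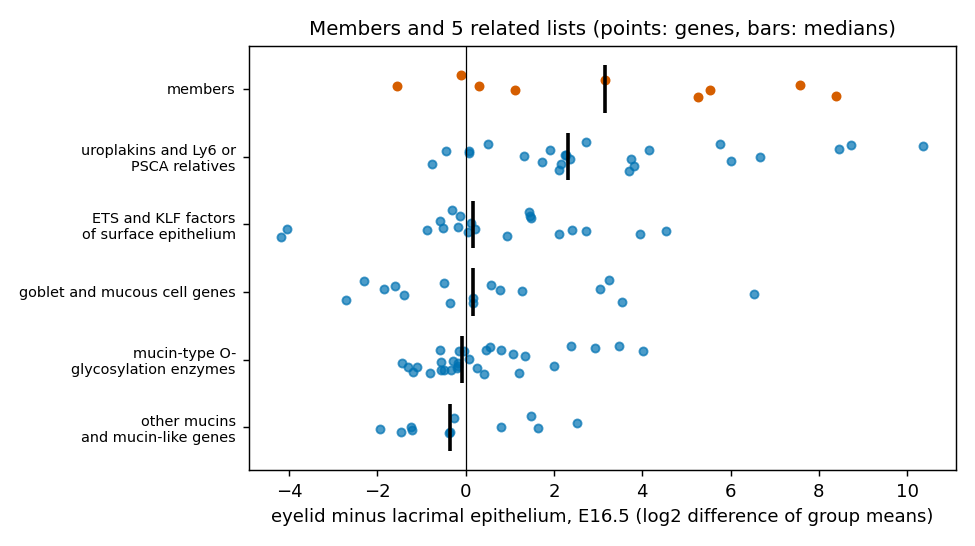
Eyelid minus lacrimal epithelium at E16.5 (log2 difference of group means) for the 9 genes and 5 related lists, with a point per gene and a bar at each median. The uroplakin and Ly6 list has its median at 2.32 and reaches 10.37 (Ly6d), while the other 4 lists have medians between -0.35 and 0.17.

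Between the adult glands the same lists ran mixed, where 22.4% of all genes were higher in lacrimal gland and 33.2% lower, with a median of -0.13. The uroplakin and Ly6 list had 2 higher and 11 lower of 24, with a median of -0.87: Upk1a, a bladder-plaque uroplakin, differed by -4.19 ± 0.42, and Lypd1, the other way, was at least 2.35-fold higher in lacrimal gland. The goblet and mucous list had 5 higher and 6 lower of 16, with a median of 0.07. Among the higher, Agr2, a chaperone for mucin folding, exceeded harderian gland by 8.84 ± 0.55, and Foxa1 by 8.63 ± 0.68. Among the lower, Capn9 was at least 4.47-fold lower in lacrimal gland. Fcgbp exceeded harderian gland by 3.92 ± 0.27. The O-glycosylation list had 9 higher and 9 lower of 30, near the share over all genes, with a median of -0.08: Galnt3 was higher by 4.64 in lacrimal gland, and C1galt1, the core 1 synthase, at least 2.92-fold lower. Other mucins had 5 higher and 4 lower of 11, with Mucl2, a small mucin-like secretory gene, higher by 8.15 ± 2.16 (adjusted p = 0.00371) and Parm1 at -6.05 ± 0.22.

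The genes whose group means were most like each member's were found by Pearson's r over the 8 group means, a description that rests on 8 points sharing arrays and scaling. Muc15 lay closest to Sectm1a (0.993), Upk3b (0.987) and Tfap2e (0.985), and Upk3b to Muc15 and to Defb1 (0.978). Psca lay closest to Serpinb3c (0.997), Dkkl1 (0.991) and Best2 (0.990), and Muc20 to Morc1 (0.983) and Pdzk1ip1 (0.981). Muc4 had no gene above 0.95 and lay closest to Krt15 (0.948), Aqp3 (0.944) and Tdrp (0.933). Spdef, Muc1, Muc5ac and Muc5b each had 271 to 285 genes above 0.95, so single names say little for them. The nearest were Rgs20 for Spdef (0.995), Cyb5a for Muc1 (0.995), BC031181 for Muc5ac (0.997) and H2-K1 for Muc5b (0.998).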

How the data were processed

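Per the labels, total RNA of each sample was labelled with Cy3 and hybridised to an Agilent 1-colour array. The deposited intensity values are the scanner software's background-subtracted and detrended signals, not scaled between arrays. Per the submitters' processing notes they were made with Agilent Feature Extraction 11.5.1.1, while per the file headers the 7 arrays of slide 1 were read with 11.0.1.1, and the headers name build mm9. The series-wide deposited values, also intensity, match the arrays' processed signals.

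From these, log2 of the processed signal minus each array's 75th percentile was computed, spots of a probe were averaged, and 27509 of 55681 probes were named through RefSeq accessions (28172 were not). Probes passed if some group had, in all its arrays, a share of spots flagged well above background of 0.5 or more, and a gene was read from its brightest passing probe by mean. No spot was saturated. Over 16323 genes and 23 arrays, lmFit and eBayes of limma 3.58.1 (R 4.3.3, data.table version 1.17.8) were fitted with 8 group means and no block. The slide is the replicate number for the embryonic groups and adult harderian gland. Deviations from group means of same-numbered embryonic samples correlated at 0.171 to 0.578 in 18 pairs, so these samples varied together. A shared origin and a shared slide cannot be told apart in this. Pairs with adult glands gave -0.34 to 0.37 (7 pairs). No pairing entered the fit as reported, and the replicate block was run as an alternative. Figures were drawn with Python 3.11.15, pandas 2.3.3 and matplotlib 3.10.9. The number of arrays limits the precision.

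Genes outside the list were named by a rule: the 3 most alike by Pearson's r over 8 group means for each member, and, from each of 5 related lists and for 4 comparisons, up to 4 genes with the largest difference at an adjusted p under 0.05, at least 2-fold, and above background throughout the brighter group. The members and lists were chosen with earlier results of these data known. Alternatives were normexp background correction (offset 50), median scaling, quantile normalization, a stricter filter, no filter, the series-wide deposited values, the mean of probes, the replicate block, the slide as a block, fits on the groups compared or on embryonic groups only, and leaving out each array. Mean spot signals are not among the columns used, so normexp used the spot and background medians. The fit was tested on simulated data for eyelid against lacrimal epithelium with 200 of 16323 genes changed: it recovered 44% at a log2 change of 1 and 80% at 2, with 5 false calls.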

Additional observations from a re-analysis of the deposited data

Results flagged for a closer look

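The epithelium-over-mesenchyme difference at E16.5 varied among eyelid, lacrimal gland and harderian gland for 3 of the 9 genes, beside 42.3% of all genes. The F statistic of the interaction was 57.9 for Muc15, 30.9 for Upk3b and 14.4 for Psca (adjusted p = 4.91e-07, 2.08e-05 and 0.00103 in limma). Muc15 passed the filter on dim probes through eyelid epithelium alone, so its p-value here is not independent of the filter. In each, eyelid epithelium was high and the gland epithelia were at or near background.

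The adult-over-embryonic difference was not the same in both glands for 4 of the 9 genes, beside 45.2% of all genes. It was tested as the lacrimal minus harderian difference in limma. It was 4.39 for Spdef (adjusted p = 3.88e-08), -5.57 for Muc1 (adjusted p = 1.03e-06), -3.89 for Upk3b (adjusted p = 0.00554) and -2.51 for Muc15 (adjusted p = 0.00187). Upk3b and Muc15 were not well above background in adult lacrimal gland or lacrimal epithelium, nor Muc1 in harderian epithelium, so these sizes are fitted values and not measured differences. The Muc15 value was -0.15 after normexp background correction (adjusted p = 0.705).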

How the results depend on the processing

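Of the log2 differences recomputed for the 9 genes, 2013 kept direction and side of the threshold, 44 newly passed, 65 no longer passed and 3 changed sign: Muc4 in adult lacrimal gland against lacrimal epithelium (0.0052, normexp), and with quantile normalization Muc15 in lacrimal against harderian epithelium (0.20) and in adult lacrimal gland against lacrimal epithelium (-0.17). The causes were not tested. By Spearman's rho, 1 of the 3 genes named as most like Muc1, Muc5ac and Upk3b stayed in the top 1% for each. The counts that moved by over 1.5 times are those of few genes. For genes higher in lacrimal epithelium than mesenchyme, 2 as reported, normexp and the stricter filter gave 1. For harderian epithelium over mesenchyme, 0 as reported, normexp, median scaling, the stricter filter and the mean of probes gave 1, and fits on the groups compared or on embryonic groups only gave 2. For lacrimal over harderian epithelium, 1 as reported, normexp and the fit on the groups compared gave 0, and for the lower direction, 0 as reported, the fits on the groups compared and on embryonic groups gave 1. Lower in adult lacrimal than harderian gland, 5 as reported, were 3 with normexp or the stricter filter. In adult lacrimal gland against lacrimal epithelium, 5 higher as reported, quantile normalization and the stricter filter gave 3. For the lower direction there, 0 as reported, median scaling, quantile normalization, the replicate block and the fit on the groups compared gave 1. Adult over embryonic harderian, 7 as reported, was 4 with the stricter filter. That filter asked for more than 1 group above background on all its arrays. Muc1, Muc15 and Muc5b did not meet it and were not tested under it. The lower counts given for it thus come from genes left out, not from lost calls. The eyelid minus lacrimal interaction, 1 lower as reported, was 0 with normexp or median scaling. The age interaction, 3 lower as reported, was 5 with median scaling or quantile normalization and 1 with the stricter filter. The F test passed for 5 of 9 genes, not 3, in fits on the groups compared and in fits on embryonic groups only, the second of which was an alternative chosen after seeing the data. Over all genes, median scaling gave 630 calls for lacrimal against harderian epithelium (1037 as reported), 3471 for the eyelid minus lacrimal interaction (6077), 3395 for the eyelid minus harderian one (5948) and 3952 for the F test (6907). The fit on the groups compared gave 4369 for the adult glands (9080), and that on embryonic groups 1765 for lacrimal against harderian epithelium. The replicate block changed the call of no other gene than Muc4 in adult lacrimal gland against lacrimal epithelium (-3.06, adjusted p = 0.0455), where the slide block, which differs from it in the adult lacrimal arrays, changed the call of Muc5b (2.16, adjusted p = 0.0253). The Muc5b p-value is not independent of the filter on dim probes, which Muc5b passed through adult lacrimal gland alone.

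Leaving out each array in turn, calls over all genes ranged from 7515 to 8807 for eyelid epithelium against mesenchyme, 8608 to 10006 for lacrimal, 8545 to 9880 for harderian, 6362 to 7990 for eyelid against lacrimal epithelium, 6261 to 7859 for eyelid against harderian, 744 to 1312 for lacrimal against harderian, 7808 to 9094 for the adult glands, 10072 to 11724 and 10677 to 11602 for adult over embryonic lacrimal and harderian, 5241 to 6686 and 5271 to 6521 for the eyelid interactions, 6620 to 7730 for the age interaction and 6072 to 7609 for the F test. Counts of the 9 genes ranged from 5 to 6 higher for eyelid epithelium against mesenchyme, 1 to 3 for lacrimal, 0 to 2 for harderian, 5 to 6 and 4 to 5 for eyelid against lacrimal and harderian epithelium, 0 to 1 in either direction for lacrimal against harderian, 4 to 8 lower for the adult glands, 3 to 6 higher and 0 to 1 lower for adult lacrimal, 5 to 9 higher for adult harderian, 3 to 4 higher and 0 to 1 lower for the eyelid minus lacrimal interaction, 3 to 4 for the eyelid minus harderian one, 3 to 5 lower for the age interaction and 3 to 5 for the F test. Dim probes limit what can be said of Muc1 in the embryo and of Muc15, Psca and Upk3b in lacrimal tissue, where values at background have no order.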

Other observations

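Muc5ac and Muc5b, the gel-forming mucins of conjunctival goblet cells, overlapped the gland epithelia in eyelid epithelium at E16.5 and did not pass against either, while Capn9 was at least 68.5-fold higher there than in lacrimal epithelium and at least 51.4-fold higher than in harderian epithelium. The goblet and mucous list that holds Capn9 was split. Against lacrimal epithelium 5 of its 16 measured genes were higher and 6 lower, beside 18.3% and 27.2% of all genes. Against harderian epithelium 3 were higher and 3 lower, beside 18% and 26.6%. Klf4 exceeded lacrimal epithelium by 4.54 and harderian epithelium by 4.01 on the log2 scale in the same eyelid samples, while Spdef was lower there than in lacrimal epithelium.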
